A study of Rattus norvegicus with 8 samples.

Results

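From the striatal small RNA counts of rats, 8 rows were taken by name: rno-miR-375-3p, rno-miR-375-5p, rno-miR-192-5p, rno-miR-194-5p, rno-miR-203a-3p, rno-miR-205, rno-miR-31a-5p and rno-miR-31a-3p, written without the species prefix from here on. These are miRNAs known from epithelia and endocrine tissue that do not belong to the miR-200 family. All 8 names were found among the 752 mature miRNAs of the table, and 7 of the 8 were among the 507 miRNAs that passed the low-count filter. The exception was miR-375-5p, which had 0 counts in every library. The striatum gave 1 small RNA library per animal, from 4 rats with saline self-administration and 4 rats with methamphetamine (METH) self-administration. All were male Sprague-Dawley rats of wild-type genotype, and all had food training, a jugular catheter and daily lever-press sessions. The groups differed in whether the infused saline held METH, and the study reports that METH rats also took more infusions. The study chose 4 stable responders of each kind for plasma sampling, and the sources used here do not say whether these are the sequenced rats. The whole striatum is a mixture of cells, so fewer cells of a type and less RNA per cell cannot be told apart in any value given here.

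A miRNA is a short RNA that is cut from a hairpin precursor, and either arm of the hairpin (5p or 3p) can be loaded into an Argonaute protein. The loaded strand pairs with messenger RNAs mainly through its seed, bases 2 to 8, and lowers their translation and stability. Most miRNAs are shared between tissues, but some mark an epithelial or secretory cell identity. The miR-200 family rows miR-200a-3p and miR-429 served as references because they are also epithelial and differ widely between these rats. The question was whether other epithelial or endocrine miRNAs follow the treatment groups or those reference rows.

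Mature sequences are shown because they separate these miRNAs from each other and define which messenger RNAs each could pair with. They were taken from RefSeq on the rat assembly GRCr8, where all 8 miRNAs were matched, and are written 5′ to 3′ with the seed in capitals. The counts themselves were made on the assembly rn6, so GRCr8 positions only identify the sequences.
miR-375-3p: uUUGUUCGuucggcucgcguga
miR-375-5p: gCGACGAGccccucgcacaaacc
miR-192-5p: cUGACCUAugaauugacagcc
miR-194-5p: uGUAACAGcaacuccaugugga
miR-203a-3p: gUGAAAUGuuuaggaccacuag
miR-205: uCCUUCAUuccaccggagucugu
miR-31a-5p: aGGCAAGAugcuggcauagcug
miR-31a-3p: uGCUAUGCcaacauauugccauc
The 8 miRNAs had 8 distinct seeds and were 21 to 23 bases long. Of the mature miRNAs in the RefSeq table, only miR-215 shared a seed with any of them, that of miR-192-5p, and it is not analysed here. Their GC content ran from 40.9% in miR-203a-3p to 69.6% in miR-375-5p.

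The 8 mature miRNAs come from 7 precursor genes. On GRCr8, miR-375-3p lies at chr9:83906591-83906612 on the minus strand, within the span of Cryba2, a lens crystallin gene, and between Fev and Cfap65. Mir192 and Mir194-2 lie on chromosome 1, 100 bases apart, with miR-192-5p at chr1:212994232-212994252 on the plus strand, between Atg2a and Ehd1. A second gene, Mir194-1, gives the same mature miR-194-5p from chromosome 13, next to Mir215 and within the span of Iars2, an aminoacyl-tRNA synthetase gene, so reads of miR-194-5p cannot be assigned to 1 of its 2 loci. The precursor of miR-205 is also on chromosome 13, between Camk1g and Plxna2. Mir31 is on chromosome 5 within the span of a long noncoding RNA, and Mir203 is on chromosome 6 between Aspg and Kif26a. Each of the last 2 overlaps a precursor on the opposite strand, Mir3554 for miR-31b and Mir3545 for miR-203b.

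Total counts ranged from 12929302 to 27632443 per library. In every library the forebrain miRNAs were abundant: miR-124-3p, miR-9a-5p, miR-128-3p and miR-137-3p together held 249554 to 451242 CPM (counts scaled to a common library size) in the saline rats and 293280 to 438386 CPM in the METH rats. METH rat 4 stood apart. It lay at -21.5 on the first principal component of all tested miRNAs, while the other 7 libraries lay between -2.83 and 7.29, and its scaling factor was 0.766, against 0.959 to 1.15 in the others. Values that leave this library out are therefore given beside the results it moves most. Rats are numbered 1 to 4 within each group, and each CPM value includes the library's TMM (trimmed mean of M-values) scaling factor.

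Together the 8 miRNAs took 0.0756% to 0.1002% of the counts of a library. Summed, they stood at 793 ± 27.9 CPM (SD, n = 4) in saline rats, and METH rats stood at 939 ± 200.1 CPM (SD, n = 4), or at 863 ± 160 CPM (SD, n = 3) without METH rat 4. Mean level over the 8 rats fell in the order miR-375-3p (268 CPM), miR-31a-5p (218 CPM), miR-194-5p (192 CPM), miR-192-5p (139 CPM), miR-31a-3p (32.4 CPM), miR-203a-3p (16.0 CPM), miR-205 (0.723 CPM) and miR-375-5p (0 counts). These are read counts per mature miRNA, which were not scaled by length. Without METH rat 4, miR-31a-5p came first, at 236 CPM, and miR-375-3p was at 202 CPM. The first 4 did not keep this order within rats. In 3 of 8 rats miR-375-3p was above miR-31a-5p, in 6 of 8 miR-31a-5p was above miR-194-5p, and in 6 of 8 miR-194-5p was above miR-192-5p. By contrast, miR-192-5p was above miR-31a-3p in 8 of 8 rats, and miR-203a-3p was above miR-205 in 8 of 8 rats.

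**Figure D1:**
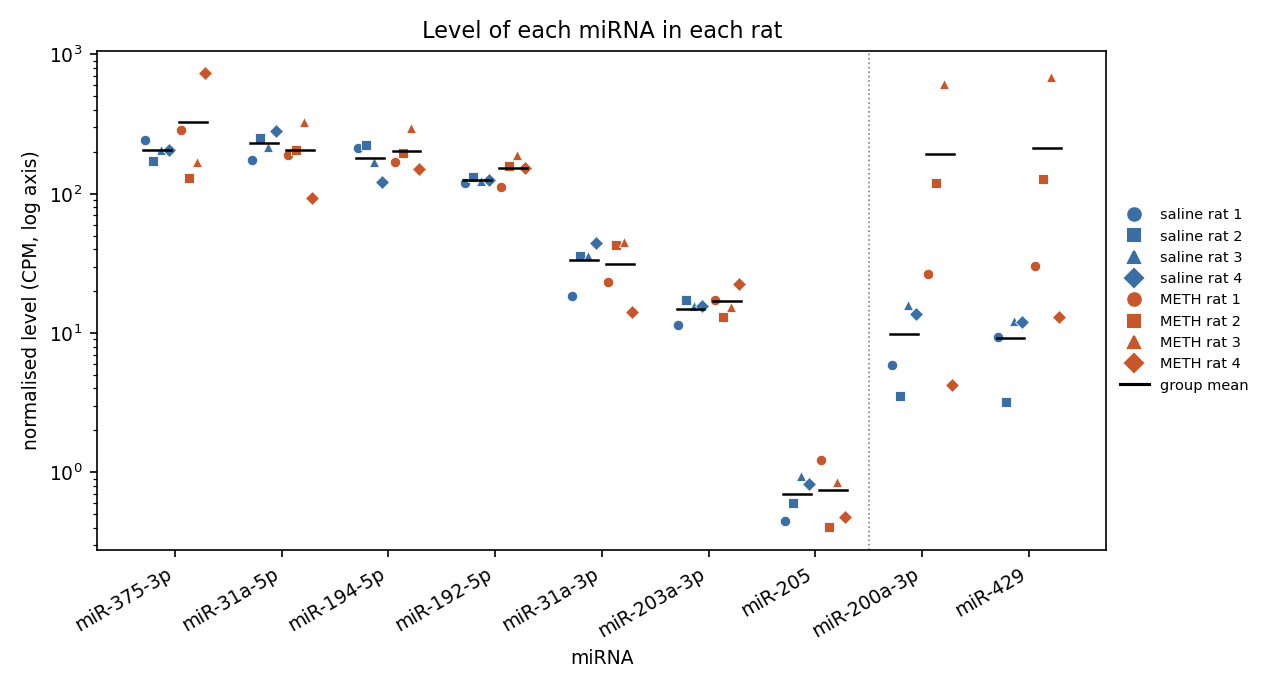
Normalised level (CPM, logarithmic axis) of the 7 tested epithelial and endocrine miRNAs and, right of the dotted line, of the reference rows miR-200a-3p and miR-429. Each symbol is 1 rat and each black line a group mean. The saline and METH symbols overlap for all 7, as they do for miR-200a-3p, where METH rat 4 (4.203 CPM) is inside the saline range, whereas those of miR-429 do not, from 3.18 to 12.3 CPM in saline rats and from 12.97 to 686 CPM in METH rats.

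None of these miRNAs passed the test for a difference between METH and saline. In the quasi-likelihood test of edgeR, 0 of the 7 tested had an adjusted p under 0.05, where 0.0% of all 507 tested miRNAs did. At an unadjusted p under 0.05 there were again 0 of 7, where the share over all tested miRNAs was 5.52%. DESeq2, the exact and likelihood ratio tests of edgeR and limma voom with sample quality weights also called 0 of the 7, where DESeq2 called 1.58% of all tested miRNAs (8 of 505) and the others called 6 (1.18%), 7 (1.38%) and 0 (0.0%) of 507. The ranges of the saline and METH groups did not overlap for 0 of 7, where 3.16% of all tested miRNAs had groups that did not overlap. The median log2 fold change was 0.16 over the 7, against -0.02 over all tested miRNAs. Of the 7, 5 were positive and 2 negative, where 47.3% of all tested miRNAs were positive. In absolute size, the median log2 fold change was 0.17 for the 7 and 0.25 for all tested miRNAs.

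miR-375-3p, which is abundant in pancreatic islets and the pituitary and regulates hormone secretion, had the largest fold change of the 7. Its counts in saline rats 1 to 4 were 5397, 3996, 5654 and 5309, and its levels were 242, 171, 206 and 208 CPM. In METH rats 1 to 4 the counts were 4150, 2560, 4219 and 12171, and the levels were 285, 129, 170 and 731 CPM. METH rats 1 and 4 were above every saline rat and METH rats 2 and 3 below every saline rat, so the METH rats lay on both sides of a narrow saline range. The group means were 207 ± 28.8 CPM (SD, n = 4) in saline and 329 ± 276 CPM (SD, n = 4) in METH. The difference was above the saline SD and below the METH SD, and it did not pass the exact permutation test (p = 0.600, two-sided). The log2 fold change was 0.67 ± 0.48 (SE), with a 95% interval from -0.41 to 1.75 (edgeR, adjusted p = 0.818).

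The direction of the miR-375-3p difference rested on METH rat 4. Without it, the METH mean was 195 ± 80.9 CPM (SD, n = 3) and the log2 fold change was -0.09, with an adjusted p of 0.998 in edgeR. In that rat miR-375-3p made up 62.6% of the counts of the 8 miRNAs, against 16.3% to 35.8% in the other 7 libraries. The passenger arm, miR-375-5p, had 0 counts in every library, although its partner had up to 12171. Taking a floor of 3 counts per library for a count of 0, the 3p arm was at least 853-fold higher than the 5p arm in METH rat 2, where it was lowest, and at least 4057-fold higher in METH rat 4. These floors cover counting error only.

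Marker lists of other tissues were read beside miR-375-3p. METH rat 4 was the highest of the 8 libraries in the summed level of the pituitary and endocrine, choroid plexus, ciliated epithelium, liver, muscle and erythrocyte lists. The pituitary and endocrine list (4 of 4 rows with counts, led by miR-7a-5p, a miRNA of neuroendocrine cells, and miR-7b) summed to 73276 CPM in METH rat 4, against 15954 to 36994 CPM in the other libraries. Nearly all of it was miR-7a-5p (66916 CPM in METH rat 4), and miR-7a-2-3p was not highest there, at 24.2 CPM against 35.9 CPM in saline rat 1. The choroid plexus list (4 of 4 rows with counts, led by miR-204-5p) summed to 6971 CPM there, against 2708 to 3491 CPM. Of that sum miR-204-5p made up 6901 CPM, while miR-204-3p was not highest in METH rat 4, at 17.6 CPM against 22.0 CPM in saline rat 2. The erythrocyte list (3 of 4 names analysed here, led by miR-451-5p, the red cell miRNA) summed to 2817 CPM there, against 342 to 648 CPM. Of that sum miR-451-5p made up 2807 CPM, while miR-144-5p was not highest in METH rat 4, at 0.901 CPM against 1.06 CPM in saline rat 4. The ciliated epithelium list summed to 610 CPM there, against 272 to 387 CPM, with miR-449a-3p at 0 in every library. Its rows did not move together: miR-34b-3p (329 CPM) and miR-449a-5p (152 CPM) were highest in METH rat 4, while miR-34b-5p (8.65 CPM) and miR-34c-5p (18.9 CPM) were lowest there and miR-449c-5p had 0 counts. Within the forebrain list the leading rows went opposite ways in METH rat 4: miR-124-3p was lowest there, at 97752 CPM against 127824 to 342449 CPM, and miR-9a-5p was highest, at 204524 CPM against 82989 to 115872 CPM. The list's sum in that rat, 314023 CPM, was inside the range of the other libraries. No miRNA of these lists had an adjusted p under 0.05 in edgeR, or an unadjusted p under 0.05. The part of these in the miR-375-3p, miR-203a-3p and miR-31a values of that rat was not tested.

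The hepatic and intestinal pair miR-192-5p and miR-194-5p is made from shared precursor clusters and is induced by p53 and by hepatocyte nuclear factors. miR-192-5p was the steadiest of the 7 over rats. Its levels were 120, 131, 123 and 125 CPM in saline rats 1 to 4 and 112, 158, 190 and 154 CPM in METH rats 1 to 4. METH rats 2, 3 and 4 were above every saline rat, and METH rat 1 was below every saline rat. The means were 125 ± 4.79 CPM (SD, n = 4) in saline and 153 ± 32.0 CPM (SD, n = 4) in METH. The difference was above the saline SD and below the METH SD, and it did not pass the exact permutation test (p = 0.143). Its log2 fold change was 0.30 ± 0.22 (SE), with a 95% interval from -0.19 to 0.79 and an adjusted p of 0.818 in edgeR. It was 0.15 without METH rat 3 and 0.42 without METH rat 1, where the exact permutation p was 0.0571, the smallest that 4 against 3 rats allow.

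For miR-194-5p the levels were 212, 225, 168 and 122 CPM in saline rats 1 to 4 and 169, 197, 295 and 151 CPM in METH rats 1 to 4. Only METH rat 3 was outside the saline range, above it. Saline rats averaged 182 ± 46.6 CPM (SD, n = 4), METH rats averaged 203 ± 64.4 CPM (SD, n = 4; exact permutation p = 0.600), with a log2 fold change of 0.16 ± 0.29 (SE), a 95% interval from -0.49 to 0.80 and an adjusted p of 0.959 in edgeR. Without METH rat 3 the log2 fold change was -0.09. The opposite arms were far less abundant. miR-192-3p, which passed the filter, had 22 to 70 counts per library and a log2 fold change of 0.04, and miR-194-3p had 3 to 14 counts.

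The skin miRNAs miR-203a-3p, which limits the proliferation of epidermal stem cells by acting on p63, and miR-205, a miRNA of basal epithelia, were at low levels. miR-203a-3p was at 11.4, 17.3, 15.5 and 15.7 CPM in saline rats 1 to 4 and at 17.2, 13.1, 15.5 and 22.6 CPM in METH rats 1 to 4. METH rat 4 was the only METH rat outside the saline range. Saline rats averaged 15.0 ± 2.53 CPM (SD, n = 4) and METH rats 17.1 ± 4.05 CPM (SD, n = 4; exact permutation p = 0.514). The log2 fold change was 0.19 ± 0.26 (SE), with a 95% interval from -0.39 to 0.78 and an adjusted p of 0.929 in edgeR, and it was 0.04 without METH rat 4.

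miR-205 was near the limit of detection. Saline rats 1 to 4 had 10, 14, 26 and 21 counts, and METH rats 1 to 4 had 18, 8, 21 and 8. Counting error alone was large at this level. The lowest level, 0.403 CPM in METH rat 2, had an exact Poisson 95% interval from 0.174 to 0.793 CPM, and the highest, 1.24 CPM in METH rat 1, had an interval from 0.733 to 1.95 CPM, so the intervals of the most distant libraries just met. On average miR-205 stood at 0.704 ± 0.223 CPM (SD, n = 4) for saline and 0.742 ± 0.383 CPM (SD, n = 4) for METH (exact permutation p = 0.914). The log2 fold change of 0.05 ± 0.42 (SE) had a 95% interval from -0.88 to 0.99 and an adjusted p of 0.985 in edgeR. METH rat 1 was above the saline range and METH rat 2 below it, and no difference was detectable at this depth.

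miR-31 is expressed in keratinocytes, mammary and other epithelia and acts on integrins and cell migration. Levels of miR-31a-5p were 174, 250, 218 and 282 CPM in saline rats 1 to 4 and 190, 207, 328 and 93.5 CPM in METH rats 1 to 4. METH rat 3 was above the saline range and METH rat 4 below it. miR-31a-3p was at 18.5, 35.6, 35.7 and 44.1 CPM in saline rats 1 to 4 and at 23.1, 42.8, 45.4 and 14.0 CPM in METH rats 1 to 4. As with the 5p arm, METH rat 3 was the highest and METH rat 4 the lowest of all 8 rats. The 5p arm averaged 231 ± 46.3 CPM (SD, n = 4) for saline and 205 ± 96.2 CPM (SD, n = 4) for METH (exact permutation p = 0.657), and the 3p arm 33.5 ± 10.8 CPM (SD, n = 4) and 31.3 ± 15.2 CPM (SD, n = 4; exact permutation p = 0.886). The log2 fold change of miR-31a-5p was -0.17 ± 0.35 (SE), with a 95% interval from -0.96 to 0.61 and an adjusted p of 0.976 in edgeR. That of miR-31a-3p was -0.09 ± 0.41 (SE), with a 95% interval from -1.01 to 0.82 and an adjusted p of 0.978 in edgeR. Without METH rat 4 both turned positive, at 0.07 for the 5p arm and 0.16 for the 3p arm.

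**Figure D2:**
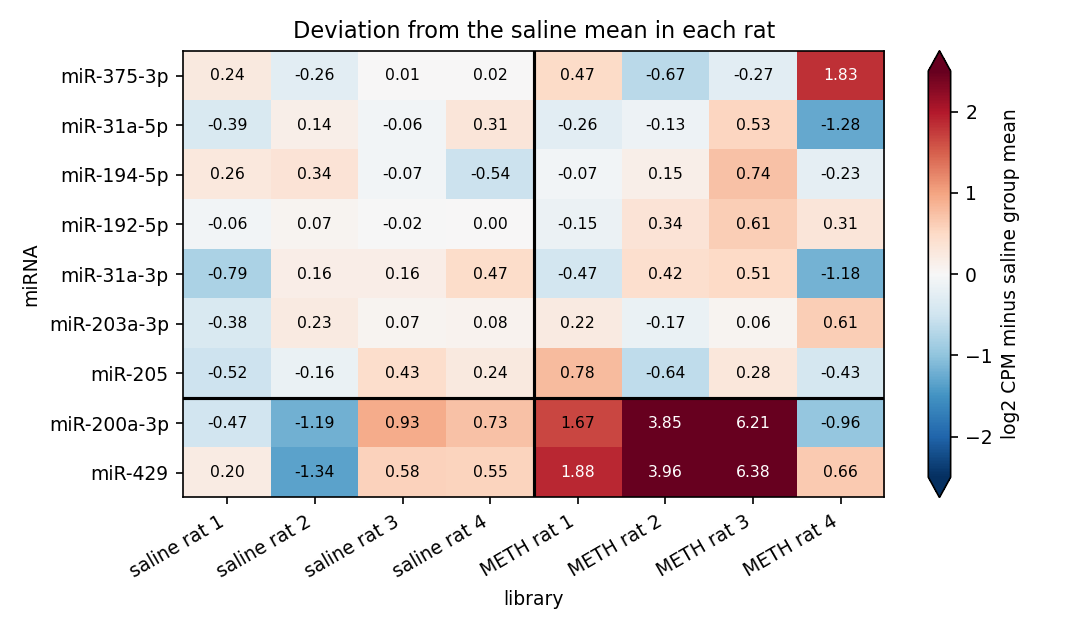
Log2 CPM of each miRNA in each rat minus the mean of the saline group, with red for higher and blue for lower. The column of METH rat 4 holds the highest value of miR-375-3p (1.83) and the lowest values of miR-31a-5p (-1.28) and miR-31a-3p (-1.18), while miR-200a-3p and miR-429 peak in METH rat 3 (6.21 and 6.38). Colours saturate beyond the ends of the scale.

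METH rat 3 held the highest value of 4 of the 7 miRNAs, METH rat 4 the highest of 2 and the lowest of 2, METH rat 2 the lowest of 2, and METH rat 1 the highest of 1 and the lowest of 1. Saline rats 1 and 4 held the lowest value of 1 miRNA each. Over all tested miRNAs, METH rat 4 held the highest value of 30.4% and the lowest of 34.7%, and METH rat 3 the highest of 11.05%. Across the 8 rats the highest CPM was between 1.696 times the lowest for miR-192-5p and 5.67 times for miR-375-3p. The median of this ratio was 2.80 over the 505 tested miRNAs with counts in every library, and the ratio was at least as large as that of miR-375-3p in 14.1% of them. Without METH rat 4 the ratio was 2.21 for miR-375-3p, and the median over all was 1.98. For the references it was 174 in miR-200a-3p and 216 in miR-429, and without METH rat 3 it was 33.8 and 40.3.

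**Figure D3:**
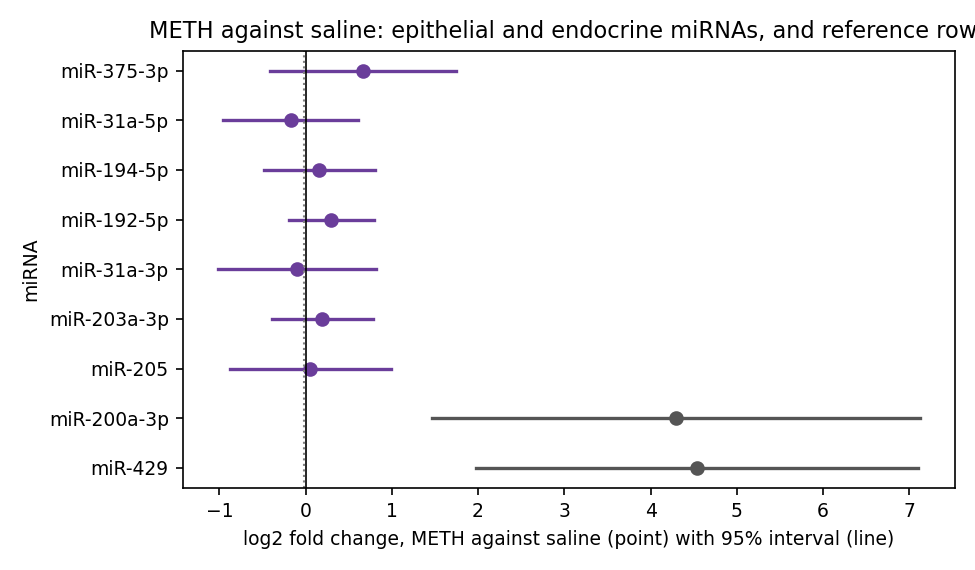
Log2 fold change of METH against saline (points) with 95% intervals from the quasi-likelihood fit of edgeR (lines). The solid vertical line is at 0 and the dotted line at the median of all tested miRNAs (-0.02). Every interval of the 7 epithelial and endocrine miRNAs spans 0.

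The reference rows had log2 fold changes of 4.30 for miR-200a-3p, with a 95% interval from 1.47 to 7.12, and 4.54 for miR-429, with an interval from 1.98 to 7.10. Without METH rat 3 these log2 fold changes were 2.34 and 2.60. The interval with the highest upper end among the 7 miRNAs was that of miR-375-3p, up to 1.75. Levels of miR-200a-3p were 5.92, 3.56, 15.9 and 13.8 CPM in saline rats 1 to 4 and 26.5, 120, 618 and 4.203 CPM in METH rats 1 to 4. For miR-429 they were 9.41, 3.18, 12.3 and 12.0 CPM and 30.4, 128, 686 and 12.97 CPM. In both rows METH rat 3 was the highest and METH rat 2 the next. Of the 9 miR-200 family rows, 5 were tested. In the quasi-likelihood test of edgeR, 0 of these 5 had an adjusted p under 0.05 and 5 had an unadjusted p under 0.05. The exact and likelihood ratio tests of edgeR called 6 and 7 of all 507 tested miRNAs, each higher in METH. The study also used edgeR, without naming the test, and lists both reference rows as increased in METH rats after adjustment. These references were named for their pattern, so their values are a description.

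Whether the 7 miRNAs follow the references from rat to rat was asked with correlations of log2 CPM over the 8 rats, computed for all 506 other tested miRNAs against each reference. P-values came from an exact permutation test over all orders of the rats and were adjusted over the 506. With miR-200a-3p, 0 of the 7 had an adjusted p under 0.05, where 0.198% of all did, and 0 of the 7 had an unadjusted p under 0.05, where 3.75% did. With miR-429, 0 of the 7 had an adjusted p under 0.05, where 0.0% did, and 1 of the 7 had an unadjusted p under 0.05, where 3.56% did. Correlations were positive for 5 of the 7 with each reference, where 53.8% of all were positive with miR-200a-3p and 51.8% with miR-429. The negative ones were miR-375-3p and miR-203a-3p in each case. The median r of the 7 was 0.50 for miR-200a-3p and 0.34 for miR-429, against medians of 0.03 and 0.01 over all.

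The 1 miRNA below the unadjusted threshold was miR-192-5p. Its Pearson r with miR-429 was 0.738 (exact permutation p = 0.0358, adjusted p = 0.990), and 2.37% of all tested miRNAs had an r at least as high. Spearman's rho was 0.476 (exact permutation p = 0.243, adjusted p = 1.00). METH rats 2 and 3 carried this relation. Without these 2 rats, which lay farthest from the median of miR-429, r was -0.329 (exact permutation p = 0.474). Within groups, as deviations from the group means, r was 0.574 (exact permutation p = 0.344). With miR-200a-3p, miR-192-5p had r = 0.650 (exact permutation p = 0.0782, adjusted p = 0.922) and rho = 0.262 (exact permutation p = 0.536), and r was -0.706 without METH rats 2 and 3. Its likeness to the references therefore rested on those rats.

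The cluster mate miR-194-5p had r = 0.501 with miR-200a-3p (exact permutation p = 0.215) and r = 0.4998 with miR-429 (exact permutation p = 0.213), with rho of 0.214 and 0.119 (exact permutation p = 0.619 and 0.793). Without METH rats 2 and 3 the r values were -0.459 and -0.537, so this relation also rested on those rats. For miR-31a-5p, r was 0.539 with miR-200a-3p (exact permutation p = 0.173) and 0.342 with miR-429 (exact permutation p = 0.392). For miR-31a-3p, r was 0.592 (exact permutation p = 0.116) and 0.40 (exact permutation p = 0.334). The adjusted p of each was 0.922 with miR-200a-3p and 0.990 with miR-429. As deviations from the group means, the arms of miR-31a had r of 0.878 and 0.828 with miR-200a-3p (exact permutation p = 0.0503 and 0.0503, unadjusted), and all 3 miRNAs were lowest among METH rats in METH rat 4 and highest in METH rat 3. The uncentred r with miR-200a-3p, 0.539 and 0.592 over all rats, was 0.358 and 0.332 without METH rats 2 and 3, and 0.458 and 0.505 without METH rat 4. The lowest r of miR-31a-5p with 1 rat left out was 0.286. With miR-429 the uncentred r turned to -0.279 for the 5p arm and -0.295 for the 3p arm without METH rats 2 and 3, while the centred r over all rats was 0.786 and 0.716 (exact permutation p = 0.104 and 0.108).

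In the other direction, miR-375-3p had r = -0.507 with miR-200a-3p (exact permutation p = 0.202, adjusted p = 0.922) and r = -0.313 with miR-429 (exact permutation p = 0.419, adjusted p = 0.990). The rat with the highest miR-375-3p, METH rat 4, was the METH rat with the lowest miR-200a-3p and miR-429. For miR-203a-3p, r was -0.276 and -0.185 (exact permutation p = 0.497 and 0.657). Without METH rats 2 and 3 the r with miR-429 turned positive, to 0.394 for miR-375-3p and 0.102 for miR-203a-3p. As deviations from the group means, r with miR-200a-3p and miR-429 was -0.802 and -0.699 for miR-375-3p (exact permutation p = 0.134 and 0.21) and -0.592 and -0.619 for miR-203a-3p (exact permutation p = 0.184 and 0.170). In the same order of references, r of miR-205 was 0.222 and 0.109 (exact permutation p = 0.594 and 0.800). Without METH rats 2 and 3, r of miR-205 was 0.909 with miR-200a-3p (exact permutation p = 0.0292, unadjusted) and 0.575 with miR-429 (exact permutation p = 0.225), over 6 rats with 8 to 26 counts each. With 8 rats, these values leave weak relations undetected.

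**Figure D4:**
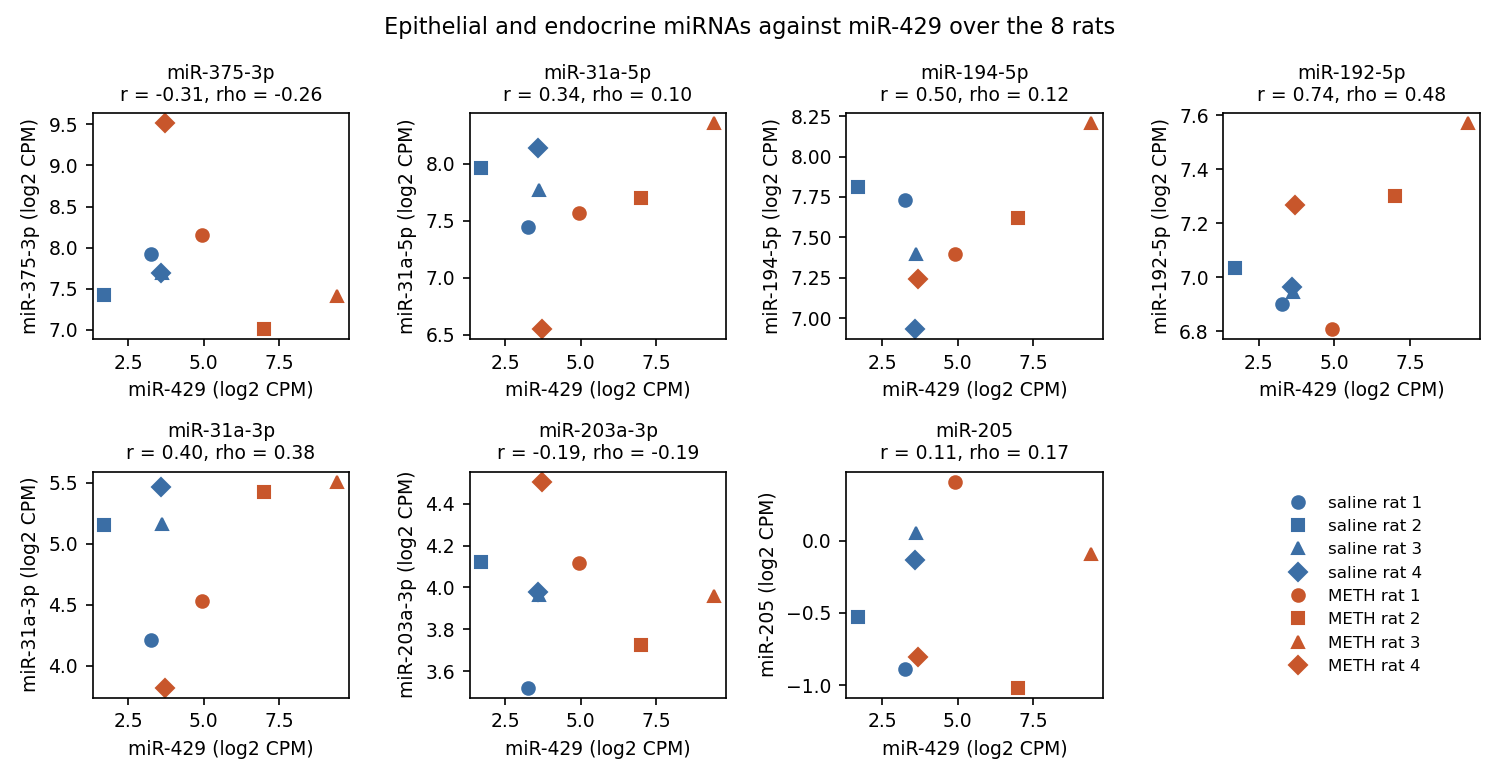
Log2 CPM of each of the 7 miRNAs against log2 CPM of miR-429, with 1 symbol per rat and Pearson's r and Spearman's rho above each panel. METH rats 2 and 3 lie far to the right in every panel, and miR-192-5p (r = 0.74) is highest in METH rat 3.

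Relations among the 7 were examined in the same way, each against all other tested miRNAs. The arms of miR-31a rose and fell together, with r = 0.895 (exact permutation p = 7.4e-04, adjusted p = 0.0342 over the 506 correlations of miR-31a-5p) and rho = 0.905 (exact permutation p = 0.00456, adjusted p = 0.144). Of all 506 correlations, 2.96% had an adjusted p under 0.05 for miR-31a-5p and 4.94% for miR-31a-3p. As deviations from group means r was 0.899. The uncentred r was 0.804 without METH rat 4 and also 0.804 without METH rats 3 and 4, which lay farthest from the median of miR-31a-5p (exact permutation p = 0.0611). Correlations with an unadjusted p under 0.05 were common for miR-31a-5p, at 28.9% of the 506, and all of these include METH rat 4. miR-375-3p ran against the miR-31a arms, with r = -0.844 for the 5p arm (exact permutation p = 0.0238, adjusted p = 0.179) and -0.856 for the 3p arm (exact permutation p = 0.00350, adjusted p = 0.0997). Neither passed after adjustment, and 21.9% of the 506 correlations of miR-375-3p had an unadjusted p under 0.05. Without METH rats 4 and 2, the farthest from the median of miR-375-3p, these r values were -0.796 and -0.769 (exact permutation p = 0.0556 and 0.0847). Without METH rats 4 and 3, the farthest for miR-31a-5p, r with the 5p arm was -0.332 (exact permutation p = 0.528). Without METH rat 4 and saline rat 1, the farthest for miR-31a-3p, r with the 3p arm was -0.757 (exact permutation p = 0.118). The cluster mates miR-192-5p and miR-194-5p had r = 0.528 (exact permutation p = 0.185).

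Ratios within a library compare related miRNAs with depth removed. The log2 CPM of miR-31a-5p exceeded that of miR-31a-3p by 3.23, 2.81, 2.60 and 2.67 in saline rats 1 to 4 and by 3.04, 2.27, 2.85 and 2.73 in METH rats 1 to 4. The 5p arm dominated in 8 of 8 rats. Group means of this difference were 2.83 ± 0.28 (SD, n = 4) and 2.72 ± 0.32 (SD, n = 4), which were not distinguishable (exact permutation test, p = 0.657). The log2 CPM of miR-192-5p minus that of miR-194-5p averaged -0.51 ± 0.40 (SD, n = 4) for saline and -0.38 ± 0.31 (SD, n = 4; exact permutation p = 0.600) for METH. It ran from -0.83 in saline rat 1 to 0.03 in saline rat 4, which was the saline rat with the lowest miR-194-5p. A group of 4 against 4 cannot give a p below 0.0286.

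**Figure D5:**
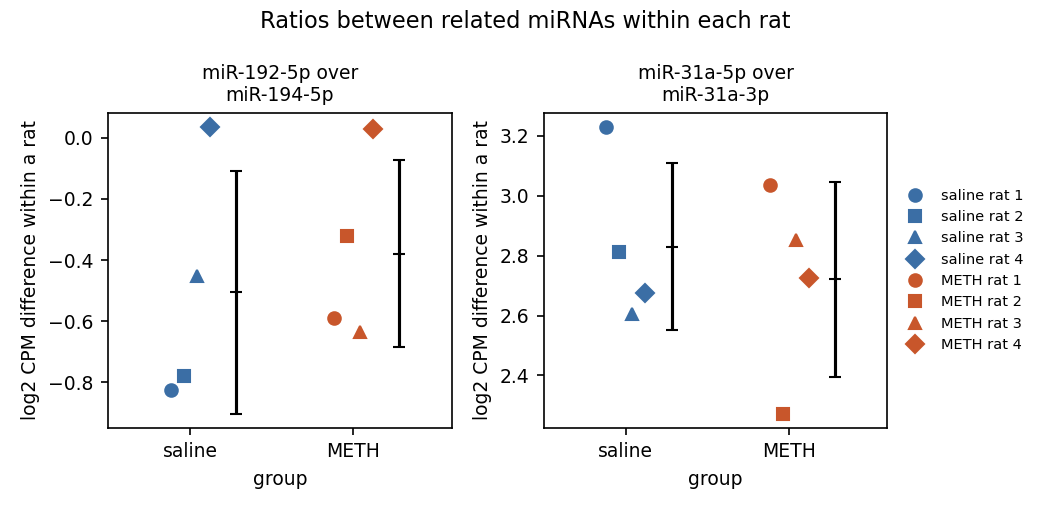
Log2 CPM of miR-192-5p minus that of miR-194-5p (left) and of miR-31a-5p minus that of miR-31a-3p (right) within each rat. Symbols are rats, and black bars are group means with the SD (n = 4). Saline and METH symbols overlap in both panels.

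The precursors on the opposite strand gave few reads. On GRCr8, miR-31b lies over 19 bases of miR-31a-5p on the other strand and had 0 counts in total, against 39473 for miR-31a-5p. miR-203b-5p lies over 20 bases of miR-203a-3p and had 4 counts in total, against 2757. The remaining arms were reversed in order. miR-203b-3p had 53 counts and miR-203a-5p, which it overlaps by 20 bases, had 25. Of 6 partner arms and relatives with a row in the table, 5 had counts and 1, miR-192-3p, was tested.

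For each tested miRNA, the miRNAs outside the 8 with the most alike levels over the 8 rats were named by Pearson's r of log2 CPM. They were miR-449a-5p (r = 0.968) and miR-127-3p (r = 0.957) for miR-375-3p, and miR-27a-3p (r = 0.958) and miR-96-5p (r = 0.928) for miR-192-5p. For miR-194-5p they were miR-325-5p (r = 0.897) and miR-181b-2-3p (r = 0.860), and for miR-203a-3p they were miR-224-5p (r = 0.927) and miR-542-5p (r = 0.923). For miR-205 they were miR-3593-3p (r = 0.901) and miR-129-1-3p (r = 0.881). For the miR-31a arms they were miR-674-5p (r = 0.964) and miR-434-5p (r = 0.938) for the 5p arm, and miR-338-3p (r = 0.967) and miR-22-3p (r = 0.959) for the 3p arm. Each is the top of 506 or fewer correlations over 8 rats and describes these libraries only. Without METH rat 4, r was 0.846 and 0.796 for the neighbours of miR-375-3p and 0.903 and 0.805 for those of miR-31a-5p, and the other 10 lay between 0.843 and 0.968. Spearman's rho of miR-96-5p with miR-192-5p was lower than its r, at 0.595, while rho of the other neighbours ran from 0.738 to 0.976. Values without METH rats 2 and 3 were not computed for these neighbours. No miR-200 family row was among the 2 nearest of any of the 7.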

How the data were processed

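Small RNA libraries were made from the striatum of 8 rats. Per the labels and the study's methods, the authors purified small RNA on a gel, prepared libraries with unique molecular identifiers, trimmed adapters with Cutadapt 1.18, aligned reads to rn6 with STAR 2.7.0e and counted them with featureCounts of Subread 1.6.4. The deposited values are raw counts per mature miRNA. Merging of reads by identifier, the miRNA annotation and the rule for reads with several alignments are not given in the sources used here, so PCR copies could be counted repeatedly and reads of related miRNAs shared. Groups were taken from the treatment labels.

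From these counts, miRNAs were filtered with filterByExpr (minimum count 10), scaled with TMM factors and tested with the quasi-likelihood test of edgeR 4.0.16 (R 4.3.3), modelling group alone, with Benjamini-Hochberg adjustment over all 507. Log2 CPM used a prior count of 2. Standard errors were taken as |log2 fold change| over the root of F, and 95% intervals used the fit's degrees of freedom. Single values were compared over all 70 assignments of rats, two-sided, and correlations over all 40320 orders, or over 576 orders within groups. Procedures were tested on simulated data. Sequences came from RefSeq tables of GRCr8.

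Text names all 8 miRNAs, the 2 references, detected partner arms and the 2 most alike miRNAs of each. The plan was to name up to 2 leading rows of each marker list. Other rows of these lists are also named, many because they differed from the leading rows in METH rat 4, as are relatives without counts such as miR-31b. The miRNAs and lists were chosen with earlier results of these data known. Alternatives were library totals, relative log expression and upper quartile factors, DESeq2 1.42.0, the exact and likelihood ratio tests, limma 3.58.1 voom with sample quality weights, other filters, the replicate block, a prior count of 0.5, Spearman correlation and leaving out libraries. Levels, ranges and likeness without METH rat 3 or 4 were added after seeing the data. Poisson intervals and floors cover counting error only, while intervals of log2 fold changes include the spread between rats.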

Additional observations from a re-analysis of the deposited data

Results flagged for a closer look

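Each of 44 sets of 4 values, 1 per rat of a group, was searched for a single distant value, which chance alone gives in about 1 in 20, and 2 sets held one. The summed log2 CPM of the choroid plexus list was 12.8 in METH rat 4, against 11.4 to 11.5 in the other METH rats. The summed log2 CPM of the partner arms and relatives of the epithelial miRNAs was 1.98 in METH rat 3, against 1.179 to 1.27 in the other METH rats. This sum consists mostly of miR-192-3p, which had 2.82 CPM in that rat.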

How the results depend on the processing

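The count of epithelial and endocrine miRNAs called between METH and saline was 0 under each of the 18 alternatives. The count following a reference was 0 under 26 runs, which pool the 2 references. Runs on deviations from group means, or without 2 rats, allow few orders, so an adjusted p under 0.05 was hardly attainable there. The count of ratios that differed was 0 under 10 alternatives. Of these, 8 left out 1 library, where 4 against 3 rats cannot give an exact permutation p below 0.0571, so their 0 was fixed in advance. The median log2 fold change over all tested miRNAs was -0.02 with TMM, -0.12 with library totals, 0.03 with relative log expression and 0.08 with upper quartile factors. Over all tested miRNAs the number of calls was 0 in the quasi-likelihood fit, 8 with DESeq2, 6 with the exact test and 7 with the likelihood ratio test, and 0 to 5 with 1 library left out, with the 5 calls without METH rat 1. None of these calls was one of the 7 miRNAs. With 1 library left out, log2 fold changes ranged from -0.09 to 0.88 for miR-375-3p, -0.094 to 0.29 for miR-194-5p, -0.27 to 0.26 for miR-205, -0.51 to 0.070 for miR-31a-5p, -0.35 to 0.16 for miR-31a-3p, 0.15 to 0.42 for miR-192-5p and 0.04 to 0.30 for miR-203a-3p.

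Directions that reversed belonged to values that passed no test, and the cause was not tested. With limma voom and sample quality weights, which change the method and the weight of each library together, log2 fold changes were -0.30 for miR-375-3p, -0.10 for miR-203a-3p, -0.40 for miR-205 and 0.10 for miR-31a-3p. With library totals, miR-205 was at -0.017. The replicate block gave 0 calls and -0.013 for miR-205. Same-numbered rats had deviations correlated at -0.34, -0.15, -0.15 and -0.36, so no likeness by number was seen. Whether they shared a run or day was not tested.

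Without the 2 rats farthest from the median of the reference, r with miR-200a-3p was -0.706 for miR-192-5p and -0.459 for miR-194-5p. With miR-429 it was 0.394 for miR-375-3p, -0.329 for miR-192-5p, -0.537 for miR-194-5p, 0.102 for miR-203a-3p, -0.279 for miR-31a-5p and -0.295 for miR-31a-3p. With 1 library left out, r of miR-194-5p ranged from -0.064 to 0.698 with miR-200a-3p and from -0.095 to 0.758 with miR-429. With miR-429 it ranged from -0.113 to 0.384 for miR-205 and from -0.087 to 0.517 for miR-31a-5p. METH minus saline differences of the ratios ranged from -0.213 to 0.041 for the miR-31a arms and from -0.0099 to 0.306 for miR-192-5p over miR-194-5p. Depth limits miR-205, which had 8 to 26 counts per library.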

Other observations

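Markers of liver and muscle were read as further checks for tissue outside the brain. miR-122-5p, the miRNA of hepatocytes, had 15 to 38 counts per library, with 2.28 CPM in METH rat 4 and 0.729 to 1.49 CPM in the other libraries. Of the muscle list, miR-206-3p was the most abundant, at 106 CPM in METH rat 4 and 30.4 to 66.4 CPM elsewhere, while miR-133a-3p was lowest in METH rat 4, at 5.04 CPM. None of the 5 tested miRNAs of these 2 lists passed the edgeR test, at an adjusted p threshold of 0.05 or an unadjusted p under 0.05. miR-133b-3p was also lowest in METH rat 4, at 1.86 CPM.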
